A study of Mus musculus with 24 samples.

Results

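The levels of 9 genes for transcription factors of macrophage identity were followed in sorted mouse alveolar macrophages: Pparg, Cebpa, Cebpb, Bhlhe40, Bhlhe41, Maf, Spi1, Irf8 and Zeb2. They were taken by name, each matched to 1 row of the 43430 gene IDs in the deposited counts, and all 9 passed the filter on low counts. Their selection followed their known roles, with earlier results of these data known.

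Alveolar macrophages are seeded around birth and need GM-CSF and TGF-beta, which lead to PPAR-gamma, the nuclear receptor that switches on their lipid-handling program. PU.1 (Spi1) opens the enhancers that all macrophages share, C/EBP factors work beside it, and Bhlhe40 and Bhlhe41 are repressors that keep resident alveolar macrophages self-renewing. Maf is typical of macrophages of other tissues and of monocyte descent, where it restrains self-renewal, while IRF8 and ZEB2 act in the descent of monocytes and in holding tissue macrophages to their identity.

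There were 6 groups of 4 libraries from C57BL/6J mice, young at 8 to 12 weeks or old at more than 18 months. The naive groups were Siglec F-high sorts, and the asbestos groups, taken 28 days after asbestos per the series text, were sorted into Siglec F-high and Siglec F-low cells. No naive Siglec F-low group was present, so Siglec F-low against naive cells differs in both gate and exposure, which cannot be told apart. The design text describes resident cells of the tissue and cells that came from monocytes, but each sample is labelled by its Siglec F gate alone, and Siglec F is itself a marker of the resident cell. Nothing in the labels said whether the libraries of a group came from separate animals, so p-values measure the spread between libraries, which may be technical. In bulk RNA, fewer cells of a type and less RNA per cell cannot be told apart.

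Of the 24 libraries, 22 held 13423080 to 18124526 counts on 17069 to 18820 genes. The other two stand apart: replicate 3 of the old asbestos Siglec F-high group had only 3894699 counts, with 71.6% on rRNA-related genes, and replicate 3 of the young group of that sort had 11889517 counts on 12528 genes. Tests are therefore given with 24 libraries and, in many cases, also with the 22. The 12 markers of resident alveolar macrophages summed to 19400 to 72300 CPM (counts scaled to library size) in every library, with none at 0 throughout a group. Marker sums reached at most 25.8 CPM for T and NK cells, 17.6 for endothelium and fibroblasts and 5.71 for eosinophils. They ran from 18.2 to 44.1 CPM for dendritic cells, 46.6 to 113 for neutrophils, with Ly6g at 0 in 5 of the 6 groups, 168 to 385 for epithelium and 24.5 to 288 for B cells.

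The factors were expressed at very different levels. Per kilobase of exon (RPKM, mean of 22 libraries), Cebpb was at 554, Cebpa at 245, Spi1 at 201, Bhlhe40 at 95.5, Pparg at 66.9, Bhlhe41 at 37.0, Irf8 at 20.6, Zeb2 at 11.3 and Maf at 0.602. Maf rested on 8 to 141 counts a library, whereas no other factor fell below 184 counts. The group means of each gene spanned a narrow range. In CPM over the 22 libraries, the highest group mean was 2.33 times the lowest for Bhlhe41, 1.86 for Maf, 1.5 for Bhlhe40, 1.43 for Irf8, 1.41 for Cebpa, 1.33 for Pparg, 1.31 for Zeb2, 1.3 for Cebpb and 1.11 for Spi1. When the 6 groups were put in the order of their means, neighbours in that order overlapped everywhere except at 1 step each for Cebpa, Bhlhe41 and Irf8.

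**Figure D1:**
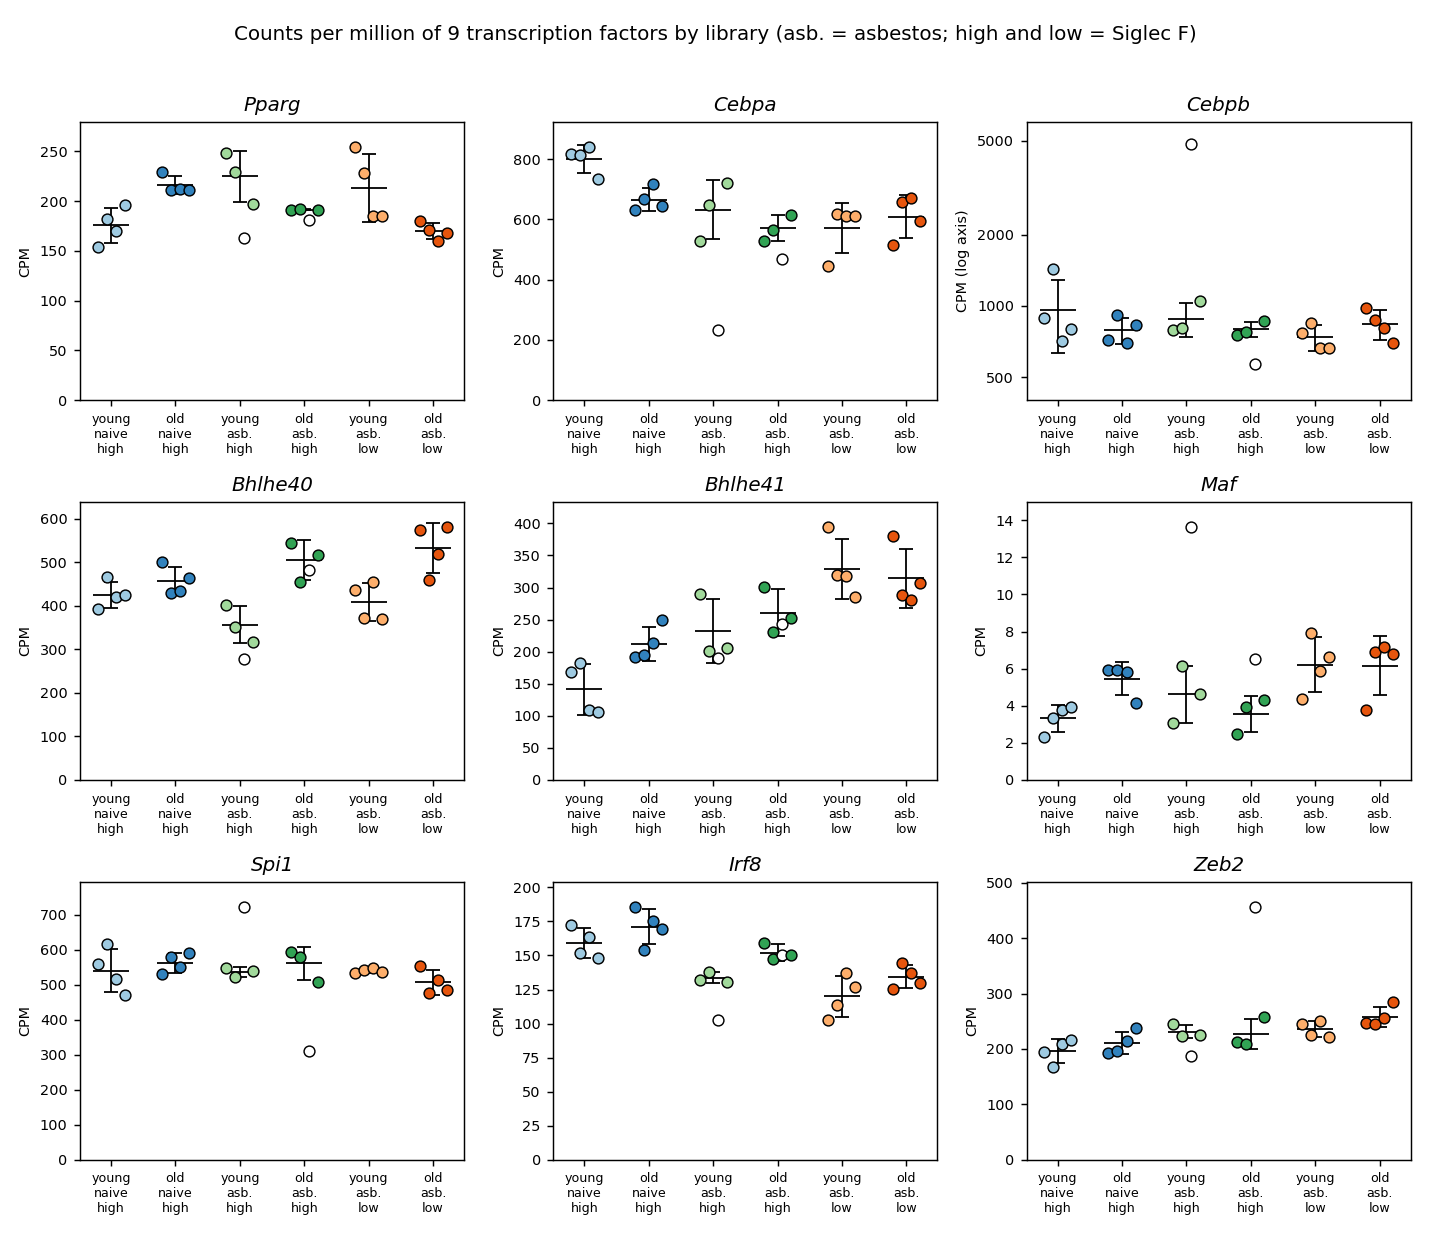
CPM of each factor (y axis, log scale for Cebpb) in the 24 libraries by group (x axis), with the 2 libraries that stand apart as open points and bars for the mean ± SD of the others. Bhlhe41 climbs from 106 to 182 CPM in young naive libraries to 285 to 394 in young Siglec F-low ones, the Spi1 means lie between 507 and 563, and the open Cebpb point is at 4843 CPM.

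The calls of these 9 genes are given beside the share of all genes called in each comparison. Of 81 pairs of a factor and a comparison of 2 groups, 5 were called with 24 libraries and 17 with 22 (edgeR's quasi-likelihood test, adjusted p under 0.05 over all genes). The calls came mainly from asbestos Siglec F-low against naive Siglec F-high cells, where 2 of 9 factors were called at each age with 24 libraries, against 12.4% of all genes tested in young and 10.5% in old mice. With 22 libraries 6 of 9 were called in young and 4 of 9 in old mice, against 34.7% and 30.7% of all genes. By direction, 1 factor was higher and 1 lower at each age with 24 libraries, where 7.94% and 4.43% of all genes were in young and 6.63% and 3.90% in old mice. With 22 libraries 4 were higher and 2 lower in young mice (18.3% and 16.4% of all genes) and 2 higher and 2 lower in old mice (15.9% and 14.8%). Median log2 fold changes of the 9 were -0.00 and 0.09 with 24 libraries, beside -0.01 and -0.02 for all genes.

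Between the 2 sorts of the same asbestos groups, 0 of 9 factors were called at either age with 24 or 22 libraries. All genes were called there at 4.99% in young and 4.30% in old mice with 24 libraries, and at 12.0% and 11.6% with 22. At an unadjusted p under 0.05 there were 3 factors in young and 0 in old mice with 24 libraries, where 20.7% and 15.4% of all genes were, and 1 and 2 with 22 (24.7% and 23.6%). A blocked fit of 22 libraries called 1 factor between the old sorts, Maf. DESeq2 and limma voom each called 1 in young mice, Bhlhe41, and none in old. With 22 libraries the log2 fold changes between sorts ran from -0.26 to 0.50 in young and from -0.19 to 0.79 in old mice, with standard errors (SE) of 0.0786 to 0.275.

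Age and exposure were also compared within a sort. Old against young, 0 of 9 factors were called in naive cells (2.03% of all genes), 1 in asbestos Siglec F-high cells (4.76%) and 0 in Siglec F-low cells (1.29%) with 24 libraries. The 22 libraries gave 2 (8.03%), 1 (7.32%) and 2 (7.21%). At an unadjusted p under 0.05 the 24 libraries gave 2, 4 and 2 factors, with 8.64%, 26.3% and 8.15% of all genes, and the 22 gave 4, 3 and 3, with 20.7%, 20.5% and 20.2%. Asbestos against naive in Siglec F-high cells gave 0 of 9 at both ages with 24 libraries (1.90% of all genes in young and 0.780% in old mice), and 2 and 0 with 22 (5.06% and 4.12%). At an unadjusted p under 0.05 there were 7 factors in young and 1 in old mice with 24 libraries (19.6% and 8.55% of all genes), and 6 and 1 with 22 (18.3% and 17.7%). DESeq2 and limma voom called 1 and 2 factors for age in naive cells, 1 and 1 for age in Siglec F-low cells, 2 and 5 for asbestos in young and 0 and 0 in old mice. These comparisons share groups: the naive libraries serve for age, for exposure and for the Siglec F-low contrast alike.

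Groups that do not overlap were counted in the same way, over 24 libraries. In Siglec F-low against naive cells 5 of 9 factors in young and 4 of 9 in old mice had groups that did not overlap, where 29.6% and 29.8% of all genes did. For age the counts were 4 in naive (12.0%), 2 in asbestos Siglec F-high (9.42%) and 2 in Siglec F-low cells (12.9%). For asbestos in Siglec F-high cells they were 3 in young (8.49%) and 2 in old mice (7.70%), and between sorts 0 (12.4%) and 2 (16.3%).

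Whether the response differed with age was tested as an interaction, and 0 of 18 such tests of the factors were called with 24 or with 22 libraries (0.00% and 0.0147% of all genes for the response of Siglec F-high cells to asbestos, and the same shares for the difference between sorts). The smallest adjusted p of edgeR's test was 0.587 with 24 and 0.441 with 22 libraries. At an unadjusted p under 0.05 there were 3 factors for the response to asbestos in each fit (7.80% of all genes with 24 and 5.16% with 22 libraries), and 1 and 0 for the difference between sorts (4.83% and 6.38%). DESeq2 and limma voom called 0.

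**Figure D2:**
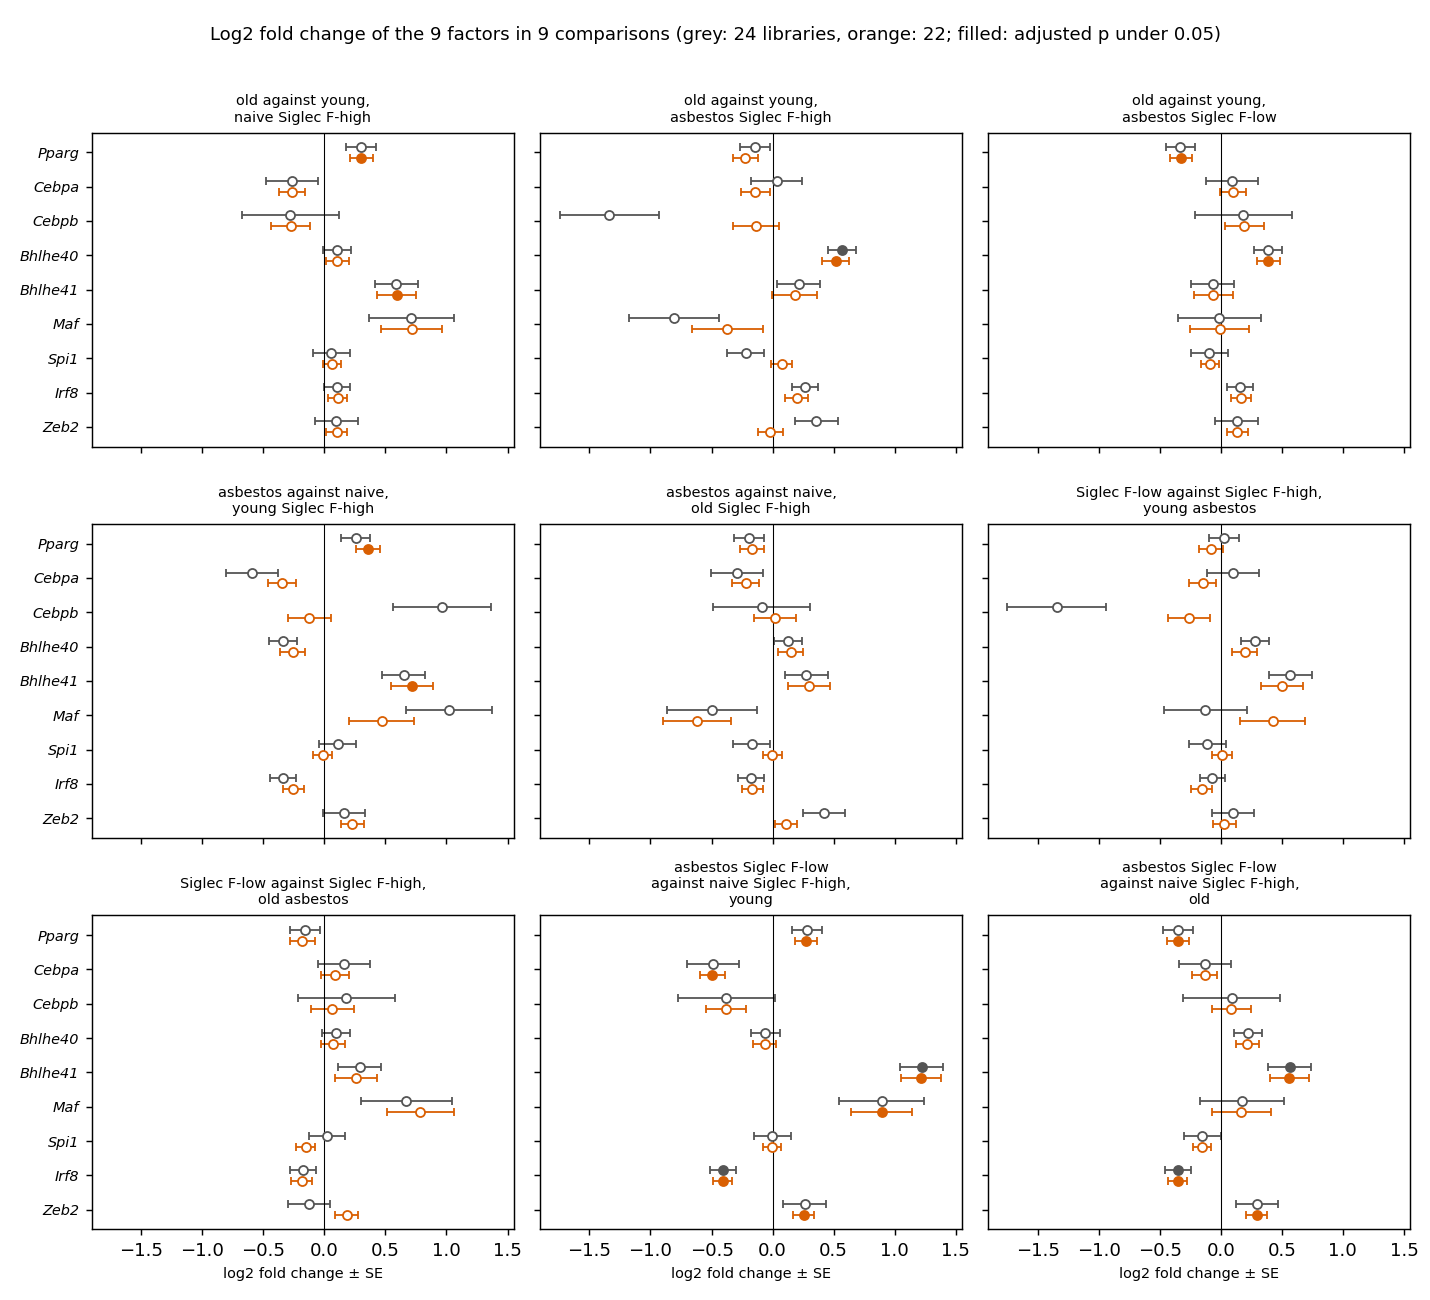
Log2 fold change ± SE (x axis) of each factor (y axis) in the 9 comparisons of 2 groups, with 24 libraries in grey, 22 in orange, and filled points at an adjusted p under 0.05. Filled points gather in the Siglec F-low against naive panels, and the grey Cebpb points at -1.34 lie away from the orange ones at -0.14 and -0.26.

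Bhlhe41 (Dec2), a basic helix-loop-helix repressor that binds E-boxes and a gene of resident alveolar macrophages, had the widest span. Young naive libraries held 168, 182, 109 and 106 CPM, and young Siglec F-low libraries 394, 319, 318 and 285, so the groups did not overlap. Old naive libraries held 192, 194, 213 and 250 CPM and old Siglec F-low libraries 381, 289, 281 and 306, again apart. Relative to naive cells, Bhlhe41 rose in Siglec F-low cells by 1.22 ± 0.177 (log2, SE; adjusted p = 3.49e-05, edgeR) in young and by 0.57 ± 0.175 (adjusted p = 0.0394) in old mice. The young call held with each of the 24 libraries left out in turn. The old call was lost without old naive replicate 1 (adjusted p = 0.112), 2 (0.108) or 3 (0.0844) or old Siglec F-low replicate 1 (0.149) or 4 (0.0754), and with no filter on low counts (0.0875), while with 22 libraries it was 0.00988.

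Bhlhe41 in asbestos Siglec F-high cells lay in between. The young libraries held 290, 202, 190 and 206 CPM, replicate 3 being the one that stands apart, and the old ones 301, 230, 243 and 252. Young asbestos and young naive libraries did not overlap, and the log2 difference was 0.65 ± 0.176 with 24 libraries (adjusted p = 0.0571) and 0.71 ± 0.172 with 22 (adjusted p = 0.0159, edgeR). Old naive cells also stood above young naive ones, without overlap, by 0.59 with 24 libraries (adjusted p = 0.105) and 0.59 with 22 (adjusted p = 0.0236). With 24 libraries DESeq2 and limma voom called asbestos in young mice (adjusted p = 0.00928 and 0.000136). They also called age in naive cells (adjusted p = 0.0315 and 0.000173). In old mice asbestos Siglec F-high against naive gave 0.28 ± 0.176 (adjusted p = 0.775), with overlapping groups. Leaving out young naive replicate 2 made calls of the age contrast in naive cells (adjusted p = 0.0391), of asbestos in young mice (0.0361) and of the young sorts (0.0480). Of the young asbestos Siglec F-high libraries, leaving out replicate 1 made a call of the young sorts (0.0155), replicate 2 or 4 of asbestos in young mice (0.0449 and 0.0451), and replicate 3 of asbestos in young mice (0.0253) and of age in naive cells (0.0368). With all 24 libraries the young sorts differed by 0.57 ± 0.175 (adjusted p = 0.0638, edgeR).

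The 250 bases before the annotated start of Bhlhe41 are shown because Bhlhe41 and Bhlhe40 bind E-boxes and both are among the genes followed. They lie at chr6:145865421-145865670 on the minus strand of GRCm38.p6 (RefSeq), and the capitals mark the E-box CACGTG, 153 bases before the start, and 2 matches to the Zeb E2 box CACCTG, read on the other strand, at 239 and 225 bases.
Bhlhe41: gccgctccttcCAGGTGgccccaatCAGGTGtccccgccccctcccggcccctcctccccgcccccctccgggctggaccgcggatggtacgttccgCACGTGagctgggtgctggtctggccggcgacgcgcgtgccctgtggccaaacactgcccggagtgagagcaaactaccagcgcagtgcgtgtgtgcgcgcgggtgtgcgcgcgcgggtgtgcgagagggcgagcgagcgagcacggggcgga
Both strands were searched, and CACGTG was in 6.02% and CACCTG in 17.2% of 32817 promoter windows of this length. The 12 windows of the 6 factors with a RefSeq promoter (Spi1, Bhlhe40 and Maf were not in the table) held them in 1 and 3 cases. GC made up 73.6% of the Bhlhe41 window, against a median of 52.4% over all windows. A match of letters describes the window and shows no binding.

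Bhlhe40 (Dec1), the close paralog of Bhlhe41, was called for age in asbestos Siglec F-high cells. In asbestos Siglec F-high cells the young libraries held 401, 352, 279 and 316 CPM and the old ones 545, 456, 482 and 517, with no overlap. Bhlhe40 rose with age there by 0.57 ± 0.117 (log2, SE; adjusted p = 0.00648, edgeR), and by 0.52 ± 0.107 with 22 libraries (adjusted p = 0.00379). No single library ended this call (adjusted p 0.00274 to 0.0277), but a fit of only these 2 groups, each with a library that stands apart, gave 0.53 with an adjusted p of 0.636. In Siglec F-low cells the young libraries held 436, 373, 455 and 371 CPM and the old ones 574, 459, 520 and 581, also apart, a difference of 0.39 ± 0.116 with an adjusted p of 0.138 with 24 libraries and 0.0105 with 22. Leaving out only replicate 3 of the young asbestos Siglec F-high group gave 0.0226.

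Some markers of other cells were also called with age in Siglec F-low cells. Of 14 monocyte markers 1 was higher in old mice with 24 libraries and 7 with 22, none was lower, and their median log2 fold change was 0.51 with 24, beside -0.01 for all genes. They summed to 4330 to 4780 CPM in young and 5300 to 7100 in old Siglec F-low libraries. Of 8 B cell markers 1 was higher, with sums of 28.9 to 56.4 and 59.8 to 149 CPM. In asbestos Siglec F-high cells 2 monocyte markers were higher and 1 lower in old mice and 1 B cell marker was higher, with monocyte sums of 1410 to 3480 CPM in young and 2540 to 4190 in old libraries. The part of these genes in the age differences of Bhlhe40 and Pparg was not tested.

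In naive cells Bhlhe40 was at 426 ± 30.0 CPM (SD, n = 4) in young and 458 ± 33.1 (SD, n = 4) in old mice, which overlapped, and the log2 difference was 0.10 ± 0.116. Siglec F-low against naive cells gave, in young mice, -0.06 ± 0.116 and, in old mice, 0.22 ± 0.116. EdgeR called neither, and limma voom called the old one (adjusted p = 0.0407). Asbestos against naive in Siglec F-high cells gave -0.34 ± 0.116 in young mice (adjusted p = 0.137, edgeR), with overlapping groups. Limma voom called it (adjusted p = 0.0292). In old mice this difference was 0.13 ± 0.116 (adjusted p = 0.911, edgeR). The difference between the age effects in asbestos and naive Siglec F-high cells was 0.47 ± 0.165, with an adjusted p of 0.587 (edgeR interaction), so the age effect of exposed cells was not shown to exceed that of naive cells. Bhlhe40 shares 118 exon bases with a gene on the opposite strand, which held 8 counts over all libraries against 171924 for Bhlhe40. Bhlhe41 shares 1280 with an opposite-strand gene that has no row in the deposited counts. Whether the counting used strand is not given in the sources used here.

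The balance of the paralogs does not depend on scaling between libraries. In counts, Bhlhe41 was 0.332 ± 0.0902 (SD, n = 4) of Bhlhe40 in young naive and 0.466 ± 0.0651 (SD, n = 4) in old naive libraries. It was 0.656 ± 0.0631 (SD, n = 4) in young and 0.512 ± 0.0274 (SD, n = 4) in old asbestos Siglec F-high libraries, and 0.807 ± 0.0901 (SD, n = 4) in young and 0.590 ± 0.0667 (SD, n = 4) in old Siglec F-low ones. The young ratio ran from 0.251 to 0.426 in naive cells and from 0.572 to 0.722 in asbestos Siglec F-high cells, and the young groups did not overlap. In old mice these ranges, 0.383 to 0.537 and 0.488 to 0.552, overlapped. These ratios were not tested.

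**Figure D3:**
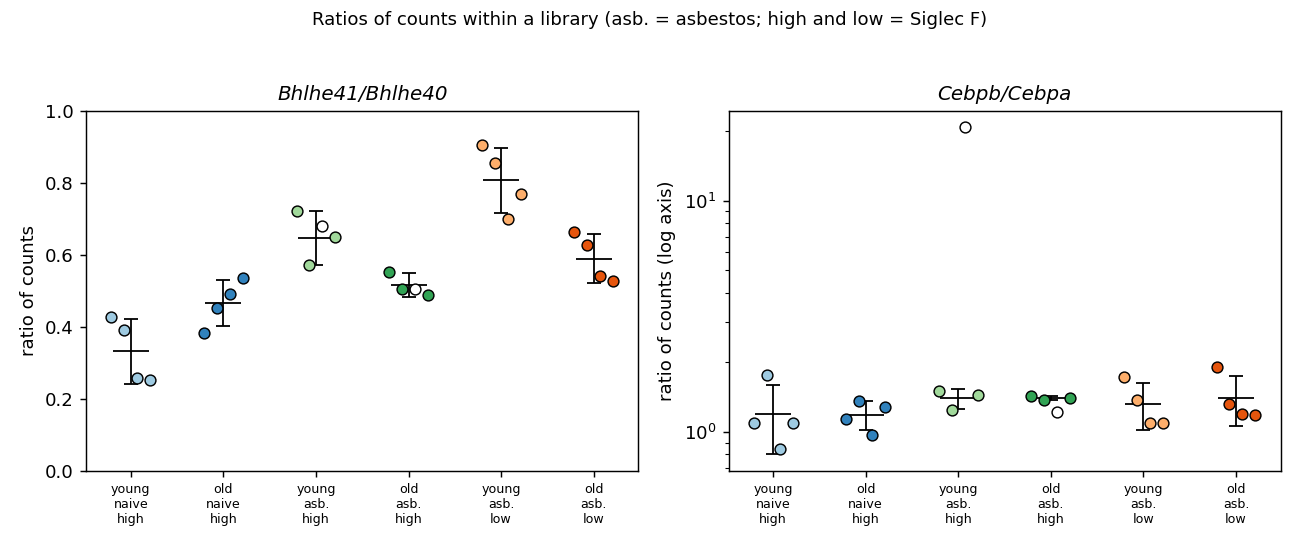
Ratio of counts within each library (y axis, log scale on the right) by group (x axis), for Bhlhe41 over Bhlhe40 and for Cebpb over Cebpa, with open points for the 2 libraries that stand apart and bars for the mean ± SD of the others. The first ratio climbs from 0.251 to 0.426 in young naive to 0.701 to 0.904 in young Siglec F-low libraries, and the second is at 0.844 to 1.91 in all libraries but 1 and at 20.8 in replicate 3 of the young asbestos Siglec F-high group.

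Pparg, the receptor that fixes the alveolar macrophage program, was called in 0 of the 9 comparisons with 24 libraries (edgeR, 5 at an unadjusted p under 0.05) and in 5 with 22, and DESeq2 called 1 and limma voom 3. Young naive libraries held 154, 182, 170 and 196 CPM and old naive ones 229, 211, 212 and 211, all above the young. In Siglec F-low cells the order was the other way round, with 254, 229, 185 and 185 CPM in young and 180, 171, 160 and 168 in old mice, again without overlap. Old against young, the log2 difference was 0.30 ± 0.121 in naive cells (adjusted p = 0.373, edgeR) and -0.33 ± 0.121 in Siglec F-low cells (adjusted p = 0.309). With 22 libraries both were called, at 0.30 ± 0.0919 (adjusted p = 0.0431) and -0.32 ± 0.0921 (adjusted p = 0.0330). These opposite signs were not themselves tested against each other. In naive cells 0 of 14 monocyte markers and 1 of 8 B cell markers, higher in old mice, passed the test for age. The B cell markers summed to 64.6 to 101 CPM in young naive and 143 to 288 in old naive libraries, without overlap. The monocyte markers summed to 1990 to 2390 and 1290 to 2190 CPM, with overlap. Their part in the Pparg values was not tested.

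Siglec F-high cells after asbestos held Pparg at 248, 229, 163 and 197 CPM in young and 191, 192, 181 and 191 in old mice. With 22 libraries Pparg rose with asbestos in young mice by 0.35 ± 0.0987 (adjusted p = 0.0374, edgeR), which 24 libraries did not call (0.26 ± 0.121, adjusted p = 0.247), and in old mice the difference was -0.17 ± 0.0996 (adjusted p = 0.399). The interaction with age was -0.53 ± 0.140 with 22 libraries, with an adjusted p of 0.441. Siglec F-low against naive, Pparg stood at 0.28 ± 0.121 (adjusted p = 0.152) in young and -0.35 ± 0.121 (adjusted p = 0.0710) in old mice, and with 22 libraries these became calls at 0.0230 and 0.00533. Leaving out young asbestos Siglec F-high replicate 3 alone also made them calls, at 0.0340 and 0.0105.

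Of the 3 annotated starts of Pparg in the promoter table, the one at chr6:115421816-115422065 (plus strand, GRCm38.p6, RefSeq) is shown, since it alone held C/EBP matches, and Cebpa and Cebpb are among the factors followed. The capitals mark the 2 matches to TTGCNNAA, at 215 and, on the other strand, 16 bases before the start.
Pparg: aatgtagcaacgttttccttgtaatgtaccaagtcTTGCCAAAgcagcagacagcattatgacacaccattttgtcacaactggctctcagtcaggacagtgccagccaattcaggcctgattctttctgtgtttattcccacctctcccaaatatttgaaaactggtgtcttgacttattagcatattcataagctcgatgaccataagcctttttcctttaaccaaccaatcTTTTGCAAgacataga
On either strand, TTGCNNAA was in 9.57% of the 32817 windows and in 2 of the 12 windows of these factors. The PPAR direct repeat, 2 copies of AGGTCA with any 1 base between them, was in 0.0335% of all windows and in none of the 12. Counts per gene do not tell which start was in use.

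Known PPAR targets, a list of 12 lipid genes that were all tested, divided in both directions in Siglec F-low cells. Against naive cells 5 were higher and 2 lower in young mice and 4 higher and 2 lower in old mice with 24 libraries, and 5 and 3, and 4 and 4, with 22. The median log2 fold change of the list was 0.05 in young and -0.13 in old mice, beside -0.01 and -0.02 for all genes. Fabp5, a fatty acid carrier, went from 88.9 ± 20.1 CPM (SD, n = 4) in young naive to 396 ± 41.8 (SD, n = 4) in young Siglec F-low cells, a rise of 2.16 ± 0.234 (log2, SE; adjusted p = 7.76e-07, edgeR), and in old mice it rose by 2.59 ± 0.238 (adjusted p = 8.33e-08). Cidec, a lipid droplet protein, fell by 1.35 in young (adjusted p = 9.55e-06) and by 1.08 in old mice (adjusted p = 0.000156). Abcg1, a cholesterol exporter, fell by 0.48 (adjusted p = 0.0496) and 0.72 (adjusted p = 0.00312). Pdk4, which limits glucose oxidation, rose with age in naive cells from 26.6 ± 2.11 to 94.0 ± 31.8 CPM (SD, n = 4 each; adjusted p = 0.00232, edgeR).

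Between the sorts the PPAR targets gave 2 higher and 1 lower in young and 2 higher and 2 lower in old mice, while Pparg itself differed by 0.03 ± 0.121 and -0.16 ± 0.122. For asbestos in Siglec F-high cells 1 target was higher at each age and none lower. Old against young, 1 was higher in naive cells and 1 in asbestos Siglec F-high cells, and 0 were called in Siglec F-low cells. The 22 libraries called more, up to 4 higher and 3 lower in the young sorts.

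Cebpa, a C/EBP factor needed for the myeloid lineage, was highest in young naive cells. They held 818, 814, 840 and 734 CPM, above every old naive library at 633, 669, 717 and 646. Young Siglec F-low libraries held 446, 617, 610 and 610 CPM, also all lower than young naive ones. The log2 difference of Siglec F-low from naive cells in young mice was -0.49 ± 0.212 with 24 libraries (adjusted p = 0.155, edgeR) and a call with 22, where Cebpa fell by 0.49 ± 0.105 (adjusted p = 0.000783). Leaving out young asbestos Siglec F-high replicate 3 alone gave 0.00293. That library held 232 CPM of Cebpa, the lowest of all, against 529, 648 and 722 in the rest of its group.

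Old Siglec F-low libraries held 514, 657, 671 and 594 CPM of Cebpa and overlapped the old naive ones, at -0.13 ± 0.212. The age difference in naive cells, -0.27 ± 0.212, was not called in either fit, though the groups did not overlap. In old asbestos Siglec F-high cells Cebpa was at 529, 566, 468 and 616 CPM, below all old naive libraries, with a log2 difference of -0.29 ± 0.212 (adjusted p = 0.848). The young asbestos Siglec F-high libraries also all lay below the young naive ones, with a log2 difference of -0.59 with 24 libraries (adjusted p = 0.148), and the fit without young asbestos Siglec F-high replicate 4 called it at 0.0473. With 22 libraries the young difference was -0.34 ± 0.114 (adjusted p = 0.0829). Limma voom called it with 24 libraries (adjusted p = 0.0261).

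Cebpb, the inflammatory and stress-inducible C/EBP factor with a single exon, had 1 library far above the rest. Young asbestos Siglec F-high replicate 3 held 4843 CPM, whereas replicates 1, 2 and 4 held 794, 805 and 1049 and no other library exceeded 1437. The ratio of Cebpb to Cebpa counts was 20.8 in that library and 0.844 to 1.91 in the 22. With 24 libraries Cebpb differed by -1.34 ± 0.404 between young sorts (adjusted p = 0.0568, edgeR) and by -1.34 ± 0.404 between old and young asbestos Siglec F-high cells (adjusted p = 0.0575). Without replicate 1, 2 or 4 of the young asbestos Siglec F-high group both passed (adjusted p 0.0161 to 0.0301). With 22 libraries they were -0.26 ± 0.173 (adjusted p = 0.379) and -0.14 ± 0.186 (adjusted p = 0.762). Asbestos against naive in young Siglec F-high cells changed sign between the fits. It was 0.97 ± 0.401 with 24 libraries (adjusted p = 0.193, edgeR) and -0.12 ± 0.174 with 22 (adjusted p = 0.796).

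In the 22 libraries Cebpb ran from 663 to 1437 CPM, and the edgeR test called it in 0 of the 9 comparisons, with 1 at an unadjusted p under 0.05. Limma voom called it in 0, and DESeq2 gave it no adjusted p. The widest group was young naive, at 891, 1437, 708 and 797 CPM. The other groups had means of 737 to 883 CPM. Relatives of the C/EBP factors were lower, with Cebpd at 61.8 ± 8.67 CPM (SD, n = 4) in young naive cells and Cebpe at most at 1.04 CPM in the 22 libraries. Cebpb shares 312 exon bases with Tmem189 on the opposite strand, which held 52290 counts over all libraries against 363606 for Cebpb.

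Spi1 (PU.1), the master factor of the myeloid lineage, had the narrowest span of group means of the 9. In the 22 libraries it ran from 472 to 616 CPM, and group means from 507 to 563. The edgeR test called it in 0 of the 9 comparisons with 24 or 22 libraries, with 0 and 1 at an unadjusted p under 0.05, and DESeq2 and limma voom called it in 0. In young Siglec F-low cells it was at 533, 543, 549 and 538 CPM, and in young naive cells at 559, 616, 517 and 472. The difference of these groups was -0.00 ± 0.149 with 24 and -0.01 ± 0.0729 with 22 libraries. The libraries that stand apart were off in both directions, at 723 CPM in the young and 312 in the old one.

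PU.1 targets, 12 genes that were all tested, gave calls in both directions. In Siglec F-low against naive cells 2 were higher and 2 lower at each age with 24 libraries, and 4 and 3 at each age with 22, with a list median of 0.13 in young and 0.05 in old mice, beside -0.01 and -0.02 for all genes. Itgam (CD11b), an integrin of monocytes, rose from 9.39 ± 1.52 to 41.0 ± 6.91 CPM (SD, n = 4 each) in young (adjusted p = 5.53e-08, edgeR) and from 9.76 ± 0.718 to 80.0 ± 20.2 (SD, n = 4 each) in old mice (adjusted p = 4.46e-10). Between the sorts 2 were higher and 1 lower in young and 2 higher and 0 lower in old mice with 24 libraries, and 4 higher and 2 lower at each age with 22. Itgam also stands in the list of monocyte markers.

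Irf8, which directs progenitors to monocytes and tissue macrophages, was lower in asbestos Siglec F-low than in naive Siglec F-high cells. Young naive libraries held 173, 152, 164 and 148 CPM, and young Siglec F-low libraries 103, 114, 137 and 127, with no overlap. In old mice the values were 186, 154, 175 and 170 in naive and 126, 145, 137 and 130 in Siglec F-low cells, again apart. Irf8 fell by 0.41 ± 0.106 (log2, SE; adjusted p = 0.0113, edgeR) in young and by 0.35 ± 0.106 (adjusted p = 0.0338) in old mice, and with 22 libraries the adjusted p was 0.000317 and 0.00149. The young call was lost without young Siglec F-low replicate 1 (adjusted p = 0.0668). The old call was lost without any of 7 libraries (adjusted p 0.0512 to 0.126), which were old naive replicates 1, 3 and 4, old Siglec F-low replicates 1, 3 and 4 and old asbestos Siglec F-high replicate 4. With no filter on low counts neither call held (adjusted p = 0.0766 in young and 0.172 in old mice).

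B cells also express Irf8, and their markers moved the same way between naive and Siglec F-low cells. The 8 B cell markers summed to 64.6 to 101 CPM in young naive and 28.9 to 56.4 in young Siglec F-low libraries, and to 143 to 288 and 59.8 to 149 in old mice, with none at 0 throughout a group. Of the 8, 3 fell in young and 1 in old mice with 24 libraries, and 7 and 6 with 22. Between young and old naive cells the B cell sums rose without overlap, whereas Irf8 overlapped, at 0.105 ± 0.105 (log2, SE). The part of the B cell markers in the Irf8 values was not tested.

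In asbestos Siglec F-high cells Irf8 was at 132, 138, 102 and 131 CPM in young and 159, 147, 150 and 150 in old mice. The young libraries were all below the young naive ones, with a log2 difference of -0.34 with 24 libraries (adjusted p = 0.108, edgeR) and -0.26 with 22 (adjusted p = 0.0917). DESeq2 and limma voom called this difference with 24 libraries (adjusted p = 0.0237 and 0.0185). Old libraries were all above young ones here, by 0.27 ± 0.106 (adjusted p = 0.117). Between the young sorts Irf8 was at -0.07 ± 0.106, with overlap and without a call (adjusted p = 0.751, edgeR). Between the old sorts Irf8 was at -0.18 ± 0.106, without overlap and without a call (adjusted p = 0.475). Irf4, a relative that acts in macrophages and lymphocytes, is drawn with Zeb1 in the plot of family relatives. It was at 41.1, 39.3, 29.3 and 40.5 CPM in old Siglec F-low libraries against 12.6, 13.5, 12.9 and 7.36 in young ones, a rise with age of 1.69 ± 0.235 (adjusted p = 0.000276, edgeR). The marker shifts given for this contrast with Bhlhe40 stand beside this value too, and their part in it was not tested.

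Maf, which limits self-renewal, was detected at a few CPM. Young naive libraries held 2.32, 3.31, 3.74 and 3.96 CPM, old naive ones 5.94, 5.95, 5.80 and 4.14, and young Siglec F-low ones 4.38, 7.93, 5.84 and 6.62. The last 2 of these groups lay above young naive cells without overlap. With 22 libraries Maf rose in Siglec F-low over naive cells in young mice by 0.89 ± 0.249 (log2, SE; adjusted p = 0.00742, edgeR), which 24 libraries did not call (0.90 ± 0.349, adjusted p = 0.106), and leaving out young asbestos Siglec F-high replicate 3 alone gave 0.0108. That library held 13.6 CPM, the highest of all. Old Siglec F-low cells, at 3.77, 6.91, 7.16 and 6.81 CPM, overlapped old naive ones. Between the old sorts Maf stood at 0.67 ± 0.371 with 24 libraries (adjusted p = 0.416) and 0.79 ± 0.275 with 22 (adjusted p = 0.0682), and with 22 libraries and the replicate number as a block it was called, at 0.75 (adjusted p = 0.0218, edgeR).

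**Figure D4:**
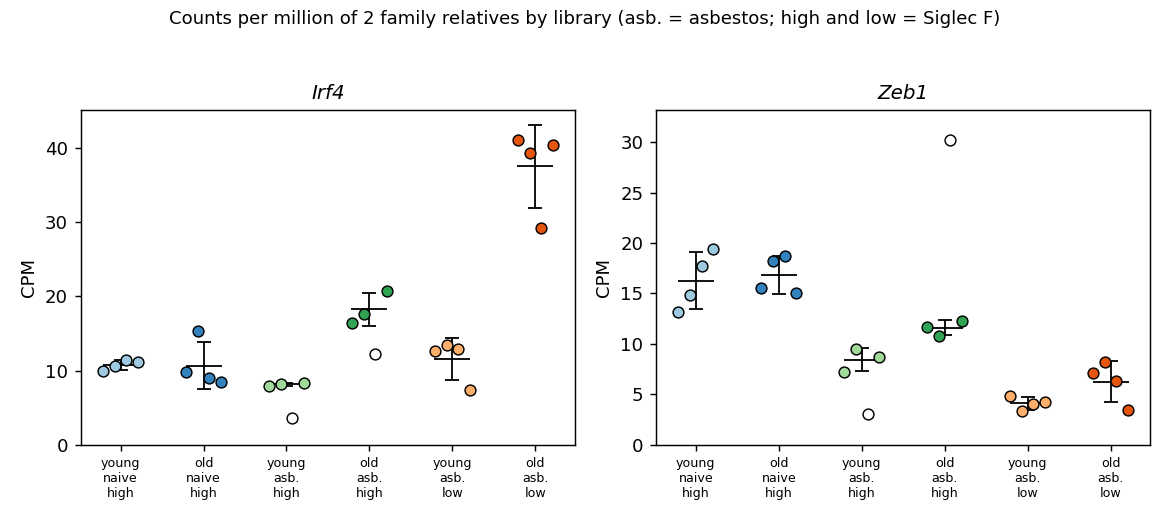
CPM (y axis) of Irf4 and Zeb1 in the 24 libraries by group (x axis), with open points for the 2 libraries that stand apart and bars for the mean ± SD of the others. Irf4 is at 29.3 to 41.1 CPM in old Siglec F-low cells, and Zeb1 has its lowest group means in the Siglec F-low groups.

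Of 6 genes listed as MAF targets in macrophages 5 were tested, and 3 were higher in Siglec F-low than in naive cells at each age, with none lower with 24 and 1 lower with 22 libraries. The 3 are the C1q chains, secreted complement proteins that also stand among the monocyte-derived markers. C1qb was at 3.18 ± 0.691 CPM (SD, n = 4) in young naive and 45.9 ± 4.97 (SD, n = 4) in young Siglec F-low cells. C1qb rose by 3.85 ± 0.240 (adjusted p = 4.39e-10, edgeR) in young mice. The list median was 3.04 in young and 4.40 in old mice on the log2 scale, beside -0.01 and -0.02 for all genes. As 3 of the 5 tested genes are C1q chains, this median largely reflects those chains. Adgre1 fell by 0.37 in young and 0.47 in old mice with 22 libraries (adjusted p = 0.000878 and 7.1e-05, edgeR). Between the sorts 3 were higher at each age, with 0 lower except for 1 in old mice with 22 libraries.

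Zeb2, a zinc finger repressor that holds tissue macrophages to their identity, was higher in every Siglec F-low than in every naive library of its age. Young naive libraries held 194, 168, 208 and 217 CPM and young Siglec F-low ones 244, 226, 251 and 221. Old naive libraries held 194, 196, 214 and 237 and old Siglec F-low ones 246, 245, 257 and 285, and the groups did not overlap at either age. With 24 libraries the differences of 0.26 ± 0.174 (adjusted p = 0.414, edgeR) and 0.30 ± 0.174 (adjusted p = 0.363) were not called. With 22 Zeb2 rose by 0.26 ± 0.0863 (adjusted p = 0.0242) in young and 0.29 ± 0.0863 (adjusted p = 0.0122) in old mice. The low-count old asbestos Siglec F-high library held 457 CPM, the highest of all, against 209 to 258 in the rest of its group. Zeb2 shares 653 exon bases with Zeb2os on the opposite strand.

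Zeb1, the paralog of Zeb2, was lower in asbestos Siglec F-low than in naive Siglec F-high cells. It was at 13.2, 14.8, 17.7 and 19.4 CPM in young naive and 4.79, 3.31, 4.07 and 4.22 in young Siglec F-low libraries. Zeb1 fell by 1.99 ± 0.316 (log2, SE; adjusted p = 0.000104, edgeR) in young and by 1.43 ± 0.308 (adjusted p = 0.00282) in old mice. B cell markers had median log2 fold changes of -1.16 and -1.03 in the same comparisons, and T and NK cell markers -0.71 and -0.86. Of the 8 T and NK markers 0 in young and 1 in old mice were called lower with 24 libraries (1 and 3 with 22). T and NK markers summed to 10.3 to 25.8 CPM in young naive and 7.15 to 18.7 in young Siglec F-low libraries, and to 10.8 to 24.2 and 8.81 to 12.9 in old mice. Between naive groups the B cell sums were 64.6 to 101 CPM in young and 143 to 288 in old libraries. Zeb1 was at 16.3 ± 2.8 and 16.8 ± 1.88 CPM there (SD, n = 4 each). The part of the B, T and NK cell markers in the Zeb1 values was not tested. Of 18 family relatives of the 9 factors 16 were tested, and with 24 libraries 0 were higher and 1 lower in young and 1 higher and 1 lower in old Siglec F-low against naive cells (1 and 6, and 2 and 4, with 22). Between the sorts 0 were higher and 1 lower in young and 1 higher and 1 lower in old mice. Their median log2 fold changes, -0.15 and -0.10 against naive cells, stood beside -0.01 and -0.02 for all genes.

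The calls in Siglec F-low cells stood beside wider shifts of marker lists. With 24 libraries, 7 of 14 markers of monocytes and monocyte-derived macrophages were higher than in naive cells at each age, with 1 lower in young mice. They summed to 1990 to 2390 CPM in young naive and 4330 to 4780 in young Siglec F-low libraries, and to 1290 to 2190 and 5300 to 7100 in old ones. Of the 12 resident markers, which include the sort marker Siglecf, 3 were higher and 4 lower in young and 2 higher and 4 lower in old mice. The resident markers summed to 19700 to 26000 CPM in young naive and 41700 to 54500 in young Siglec F-low libraries. In old mice their sums were 21800 to 24500 and 57400 to 72300 CPM. Of 17 genes of handling and immediate early response 1 was higher and 9 lower in young and 1 higher and 5 lower in old mice, with sums of 10300 to 11000 against 6720 to 7580 CPM in young and 8810 to 10800 against 7200 to 8690 in old mice. The part of these genes in the values of the 9 factors was not tested.

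Upstream of Pparg, the receptors and signal carriers of GM-CSF and TGF-beta were followed as a list. Of 12 such genes, all tested, 0 were called in 8 of the 9 comparisons with 24 libraries, where 0.780% to 12.4% of all genes were. In old Siglec F-low against naive cells 1 was lower, as were 3.90% of all genes. It was Tgfbr1, a TGF-beta receptor, from 516 ± 28.4 to 356 ± 49.8 CPM (SD, n = 4 each; adjusted p = 0.0324, edgeR). With 22 libraries the largest count was 1 higher and 4 lower, in young Siglec F-low against naive cells, where 18.3% and 16.4% of all genes were.

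Among 20 transcription factors of other tissue macrophages and of their differentiation, 18 were tested, and 3 were higher and 4 lower in young and 3 higher and 1 lower in old Siglec F-low against naive cells (6 and 6, and 7 and 3, with 22 libraries). Ahr, a receptor for aromatic ligands, rose from 2.80 ± 0.327 to 6.89 ± 0.910 CPM (SD, n = 4 each; adjusted p = 0.00114, edgeR) in young mice, and Nr1h3 (LXR-alpha), a sterol receptor, from 45.1 ± 1.73 to 87.3 ± 5.73 (adjusted p = 0.000928). Runx1 fell from 481 ± 90.1 to 266 ± 41.5 (adjusted p = 0.00667). Between the sorts 2 were higher and 1 lower in young and 3 higher and 1 lower in old mice with 24 libraries, and 5 and 2 at each age with 22.

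The genes whose log2 CPM followed each factor most closely were sought among 9301 genes of at least 5 CPM over the 22 libraries, and are given for 8 of the 9 factors. As a description over libraries that share groups and scaling, Bhlhe41 was followed by Tlr13, an endosomal receptor (Pearson r = 0.954), and Nek6 (0.948), and Bhlhe40 by Cd180 (0.920), a Toll-like receptor relative, and Pim1 (0.824). Irf8 went with Clip2 (0.915) and Dgkg (0.908), Zeb2 with Mbnl2 (0.929) and Susd6 (0.914), and Cebpa with Ccdc117 (0.883) and Ints6 (0.879). The coefficients were lower for Pparg with Tmem168 (0.802) and Eral1 (0.789), Spi1 with Akr1b10 (0.785) and Tmem273 (0.781), and Maf with Pstpip1 (0.724) and Pou2f2 (0.720). With 24 libraries the leading gene stayed the same for Pparg, Bhlhe40, Bhlhe41 and Irf8, and differed for the other 5.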

How the data were processed

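RNA was sequenced from sorted mouse alveolar macrophages in 24 libraries. The authors deposited raw counts per Ensembl gene, and the submitters' processing notes name bcl2fastq 2.19.1, FastQC, Trimmomatic 0.36, STAR 2.6.0, HTSeq 0.11.2 and mm10. Annotation and strand setting are not given in the sources used here.

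Symbols and exon lengths came from GENCODE M21 on GRCm38. Genes were kept with filterByExpr (minimum count 10, minimum total 15), which left 13467 with 24 and 13629 with 22 libraries. Counts were scaled by TMM and tested with the quasi-likelihood F test of edgeR 4.0.16 in R 4.3.3, with 1 term per group, Benjamini-Hochberg adjustment over all genes of a comparison and calls under 0.05. SE is the log2 fold change divided by the square root of F. CPM uses TMM factors of all 24 libraries, also where 22 are summarised, and log2 CPM a prior count of 2.

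The factors and the 6 pathway and 10 marker lists were chosen with earlier results of these data known. The 9 factors were named in every comparison, and from each other list at most 2 called genes of smallest p per direction. The script was tested on simulated data. Alternatives were the 22 libraries, DESeq2 1.42.0, its size factors, limma 3.58.1 (voom), no filter, other sets of libraries and a replicate block. Results for some other genes are not reported here.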

Additional observations from a re-analysis of the deposited data

Results flagged for a closer look

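In 8 of 54 groups of 4 libraries 1 library lay far from the rest for its factor, by a test that chance flags in about 1 group in 20. In 3 of the 8 it was a library that stands apart for all genes. Young asbestos Siglec F-high replicate 3 held 4843 CPM of Cebpb (794 to 1049 in the others) and 723 CPM of Spi1 (522 to 548). Old asbestos Siglec F-high replicate 3 held 181 CPM of Pparg (191 to 192). Pparg was at 229 CPM in old naive replicate 1 (211 to 212 in the others). Cebpa was at 446 CPM in young Siglec F-low replicate 1 (610 to 617), and Bhlhe41 at 290 CPM in young asbestos Siglec F-high replicate 1 (190 to 206). Maf was at 4.14 CPM in old naive replicate 4 (5.80 to 5.95) and at 3.77 CPM in old Siglec F-low replicate 1 (6.81 to 7.16).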

How the results depend on the processing

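No factor changed direction in a call under any alternative. Factors called per comparison moved as follows, from 0, 1, 0, 0, 0, 0, 0, 2 and 2 with 24 libraries. For age in naive cells the count was 2 with 22 libraries, 1 with DESeq2, 2 with limma voom, 1 with the replicate block and 4 with the block and 22 libraries. For age in asbestos Siglec F-high cells it was 0 with only the groups compared. For age in Siglec F-low cells it was 2 with 22 libraries, 1 with DESeq2, 1 with voom, 1 with only the groups compared and 2 with the block and 22 libraries. For asbestos in young Siglec F-high cells it was 2 with 22 libraries, 1 with DESeq2 size factors in edgeR, 2 with DESeq2, 5 with voom, 1 with the block and 3 with the block and 22 libraries. Between young sorts it was 1 with DESeq2, voom, the block, and the block with 22 libraries, and between old sorts 1 with the block and 22 libraries. Siglec F-low against naive gave, in young mice, 6 with 22 libraries, 4 with voom, 1 with no filter on low counts, 5 with only the groups compared, 3 with the block and 6 with the block and 22 libraries. In old mice it gave 4 with 22 libraries, 3 with DESeq2, 5 with voom, 0 with no filter, 4 with only the groups compared, 1 with the block, which lost the Irf8 call (adjusted p = 0.0526), and 4 with the block and 22 libraries. The cause was not tested. Removing rRNA-related genes changed no count, and the interactions stayed at 0 under every alternative.

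Leaving out 1 library at a time gave 0 to 1 for age in naive cells, 1 to 2 in asbestos Siglec F-high and 0 to 1 in Siglec F-low cells, 0 to 2 for asbestos in young and 0 to 0 in old mice, 0 to 2 between young and 0 to 0 between old sorts, and 1 to 5 in young and 0 to 3 in old Siglec F-low against naive cells.

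The labels do not say that replicate numbers pair samples. For libraries of the same number, deviations from the group mean correlated at 0.0733 to 0.186 in old and -0.18 to 0.245 in young asbestos mice. With 22 libraries they were 0.15 to 0.205 over 3 pairs in old and 0.0854 to 0.319 in young asbestos mice. These were positive in every pair at both ages. Some groups of different age were too, such as old naive with young Siglec F-low cells (0.0384 to 0.133). Young naive with old asbestos Siglec F-high cells gave 0.0347 to 0.12. Other groups had pairs of both signs, such as young with old naive cells (-0.05 to 0.137). Positive signs alone therefore do not show pairing, which was not tested. The block was kept as an alternative. DESeq2 gave no adjusted p for Cebpb.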
